A study of Rattus norvegicus with 18 samples.

Results

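Germ cells from the testes of 22-day-old rats, kept for 20 days on feeder layers of the MSC1 line, were compared with germ cells kept on feeder layers of the STO line for 1, 5 or 10 days. The 4 libraries of this comparison account for 8 of the 18 arrays of the study, since each of its 9 cell populations was put once on each of 2 oligonucleotide array types, called A and B here. The other populations were STO day 20, germ cells that did or did not bind to laminin, and 2 somatic fractions of the testis, interstitial cells and somatic cells of the tubules. The STO line comes from mouse embryonic fibroblasts, and the MSC1 line from mouse Sertoli cells, which enclose the germ cells within the tubule. The labels give no strain, do not say how many animals were pooled and do not say whether feeder cells were removed before RNA was taken. A later day and another feeder line came together in the MSC1 library, so that day and feeder cannot be told apart.

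Spermatogonia in culture rest on feeder cells that stand in for the wall of the seminiferous tubule. In the testis of rodents, Sertoli and peritubular cells secrete GDNF, which binds the receptor made of GFRA1 and RET on undifferentiated spermatogonia and keeps these cells dividing without differentiation. Basement membrane proteins such as laminin, collagen IV and nidogen lie under the germ cells, and fibrillar collagens lie outside them around the tubule and in the interstitium.

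Each population had 1 library per array type, so no test across libraries was possible and none was run, and the 3 STO days are separate time points and not replicates. A signal is the deposited intensity, scaled by the authors to an average of 250 per array, and signals under a floor of 50 were raised to 50 before a fold or a log2 value was taken. A probe set was called higher where its MSC1 signal was at least 250 and at least 3-fold above each of the 3 STO days, and lower where the dimmest STO day was at least 250 and at least 3-fold above MSC1. Of 31042 probe sets 66 were called higher, which is 0.213%, and 41 were called lower, which is 0.132%. With STO day 1 left out the counts were 100 and 66, and with STO day 5 left out they were 120 and 81, since fewer libraries then had to be passed. Read at 1 probe set per gene, the brightest on type A or, where that type lacks the gene, on type B, 30 of 13807 genes were called higher (0.217%) and 10 lower (0.0724%). With the brightest probe set on either type, which was added after seeing the data, these were 32 and 12. Counting every probe set with a single gene in the annotation, the calls covered 40 genes on the higher and 24 on the lower side, and the remaining 25 and 17 called probe sets have no single gene.

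The fold to the nearest STO day ran from 3.01 to 11.1 with a median of 4.21 among the 66 higher calls, and from 3.004 to 9.10 with a median of 4.05 among the 41 lower calls. Just inside the threshold on the higher side lay Cryab, a small heat shock protein gene, at 3.02-fold, and Ssh1 at 3.06-fold, and just outside lay Chd7 at 2.999-fold and Igsf21 at 2.996-fold. On the lower side Cgn at 3.01-fold and Arl16 at 3.08-fold were just inside, and Tnpo1 at 2.94-fold and Tnrc6c at 2.92-fold were just outside. The 2 array types gave like numbers of higher calls, 32 on type A and 34 on type B. For lower calls they did not, with 4 on type A and 37 on type B, or 0.0252% and 0.244% of the probe sets counted on each.

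Single pairs of libraries differed more widely. MSC1 was at least 3-fold brighter than STO day 1, day 5 and day 10 at 237, 184 and 338 probe sets, and at least 3-fold dimmer at 186, 137 and 219. Between pairs of the STO days these counts were 44 to 142. Across probe sets the correlation of log2 signals of MSC1 with an STO day lay between 0.85 and 0.90 for type A and between 0.81 and 0.84 for type B. Pairs of STO days gave 0.92 for type A and from 0.89 to 0.90 for type B. The 100 probe sets held by both array types gave an array error, as a standard deviation of the log2 difference, of 0.22 against STO day 1 and 0.25 against days 5 and 10, so that 2 standard deviations correspond to a 1.36-fold to 1.42-fold difference. This error covers the arrays and not animals, cultures or amplification. The ratio of 3' to 5' signal of Gapdh was 27.4 and 27.1 on the 2 MSC1 arrays and 18.8 to 29.7 on the 6 STO arrays. For actin it was 25.8 and 21.0 on MSC1, below the 26.8 to 95.4 of the STO arrays. The part of RNA quality in the calls was not tested.

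Genes of the extracellular matrix made up the largest group of named genes on the higher side. The naming rule favours this, since every called list member was named at any fold and the fibroblast and matrix list holds 45 genes. Of the 36 genes of the fibroblast and matrix list with a signal of at least 100 in 1 or more of the 4 libraries, 22 were above all 3 STO days by some margin and 8 below all 3. Over all 9741 such genes on the arrays, 32.6% were above and 28.3% below. The median log2 difference of the list from the mean of the STO days was 0.74, beside 0.04 over all genes, and it was 0.65, 0.84 and 0.83 against days 1, 5 and 10. At the 3-fold threshold 7 of its genes were called higher by the probe set read for the gene, and 1 was called lower. The summed signal of the list was 26684 in MSC1 against 10525 to 15002 in the STO days, and 68046 in the interstitial fraction. Such a sum leans on bright genes, among them Nid2, which was not called and whose values are given below. Fewer cells of a type and less RNA per cell cannot be told apart in such bulk libraries.

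Fibrillar collagens and the enzyme that cross-links them were among these genes. Lox, the copper-dependent oxidase that cross-links collagen and elastin, read 43.0, 46.0 and 41.3 on STO days 1, 5 and 10 and 553 in MSC1. All 3 STO values lie under the floor, which makes this probe set at least 11.1-fold higher. The other Lox probe set read 45.0, 23.6 and 69.2 against 118, only 1.71-fold above the nearest day. Col1a1, a chain of type I collagen, read 133, 133 and 107 on the STO days and 693 in MSC1, a 5.21-fold difference from the nearest day. The other Col1a1 probe set did not show this difference. It was under the floor in all 4 libraries, at 45.0 in MSC1, but read 415 in the interstitial fraction. Col1a2, the partner chain, was called by 2 probe sets, which read 302, 98.3 and 180 against 1285, and 103, 93.5 and 141 against 539. Col3a1, type III collagen, read 129, 166 and 133 on the STO days and 605 in MSC1. Sparc, a collagen-binding matrix protein, read 109, 123 and 90.1 against 406, and its other probe set was 1.94-fold above the nearest day. The probe sets of Col5a2, a chain of type V collagen, disagreed, since one read 86.2, 44.1 and 68.9 against 372 and the brighter one 2212, 357 and 956 against 1619.

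Of the genes of basement membrane proteins on the list, Nid1 passed the threshold. It encodes nidogen, which links laminin to collagen IV. Its signals were 163.5, 94.4 and 91.4 on the STO days and 968 in MSC1, 5.92-fold above the nearest. The other Nid1 probe set was 1.49-fold above. Nid2, the other nidogen gene, read 2484, 2555 and 685 on the STO days and 7597 in MSC1, which is 2.97-fold and just under the threshold. Laminin chain gene Lamc1 read 366, 260 and 298 against 673, and collagen IV gene Col4a1 read 114, 127 and 61.6 against 332. Neither was called. Ccn2, a matricellular protein gene that responds to TGF-beta and to mechanical tension, read 385, 512 and 430 on the STO days and 1689 in MSC1, 3.30-fold above the nearest. Mgp, an inhibitor of calcification in matrix, was listed at 19.8, 8.6 and 2.6 on the STO days and at 308 in MSC1, at least 6.16-fold higher.

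The list did not move as a block. Pdgfra, the receptor for platelet-derived growth factor on fibroblasts and other stromal cells, read 470, 602 and 649 on the STO days and 106 in MSC1, a 4.44-fold lower value. In the interstitial fraction it read 3622. Loxl1, a relative of Lox, read 82.4, 67.9 and 105 on the STO days and 12.4 in MSC1. Bgn, a proteoglycan gene, read 123, 86.9 and 166 against 68.0. Col6a1 and Fbn1 read 109 and 127 in MSC1 and lay within the range of the STO days.

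The promoters of 4 of the called matrix genes are shown because these genes were higher together. Each run is the 250 bases upstream of a transcription start on the gene's own strand, taken from the RefSeq annotation of the GRCr8 assembly. For Nid1 the annotated gene begins at base 93069013, so this run lies within the gene and not upstream of its first base. Capitals mark a CCAAT box on either strand or the letters TATAAA of a TATA box, wherever they fall in the run.
Col1a2, chr4:33518307-33518556, plus strand: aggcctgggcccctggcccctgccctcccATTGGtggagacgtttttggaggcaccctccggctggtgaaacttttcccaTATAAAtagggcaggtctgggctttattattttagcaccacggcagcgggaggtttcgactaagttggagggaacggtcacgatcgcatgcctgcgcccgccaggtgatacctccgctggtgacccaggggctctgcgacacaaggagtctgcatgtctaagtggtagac
Nid1, chr17:93069036-93069285, plus strand: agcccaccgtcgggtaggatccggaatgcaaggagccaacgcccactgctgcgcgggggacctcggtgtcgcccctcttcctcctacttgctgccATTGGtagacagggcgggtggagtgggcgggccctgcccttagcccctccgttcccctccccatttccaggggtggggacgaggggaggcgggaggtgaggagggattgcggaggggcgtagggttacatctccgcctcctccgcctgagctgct
Sparc, chr10:40038817-40039066, minus strand: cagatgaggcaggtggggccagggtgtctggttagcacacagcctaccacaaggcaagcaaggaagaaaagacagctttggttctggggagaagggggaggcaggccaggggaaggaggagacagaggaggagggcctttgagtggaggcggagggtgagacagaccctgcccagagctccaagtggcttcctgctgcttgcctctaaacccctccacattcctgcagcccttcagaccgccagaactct
Ccn2, chr1:22624615-22624864, minus strand: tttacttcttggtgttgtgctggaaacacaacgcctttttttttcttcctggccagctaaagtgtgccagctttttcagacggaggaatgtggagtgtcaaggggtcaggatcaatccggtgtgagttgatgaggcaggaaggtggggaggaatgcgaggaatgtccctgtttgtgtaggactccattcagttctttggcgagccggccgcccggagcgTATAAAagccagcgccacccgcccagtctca
Col1a2 holds 1 CCAAT box, on the opposite strand, and 1 TATAAA, at positions -221 and -170 from the start used. Nid1 holds 1 CCAAT box on the opposite strand, at -155. Ccn2 holds 1 TATAAA, at -31, and Sparc holds neither motif. The motifs were searched on both strands, and none of them contains another. Among the 29 genes called higher that have an entry, 10 (34.5%) held CCAAT and 6 (20.7%) TATAAA, beside 36.2% and 8.58% of 11361 genes with a probe set on the arrays. Among the 23 genes called lower that have an entry, 10 (43.5%) held CCAAT and 1 (4.35%) TATAAA. The GC box GGGCGG was in 34.5% of the higher and 65.2% of the lower genes, beside 55.7% of all. The AP-1 type motif TGANTCA was in 13.8% and 13.0%, beside 5.31%. A match is a description of letters and not a bound site.

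**Figure D1:**
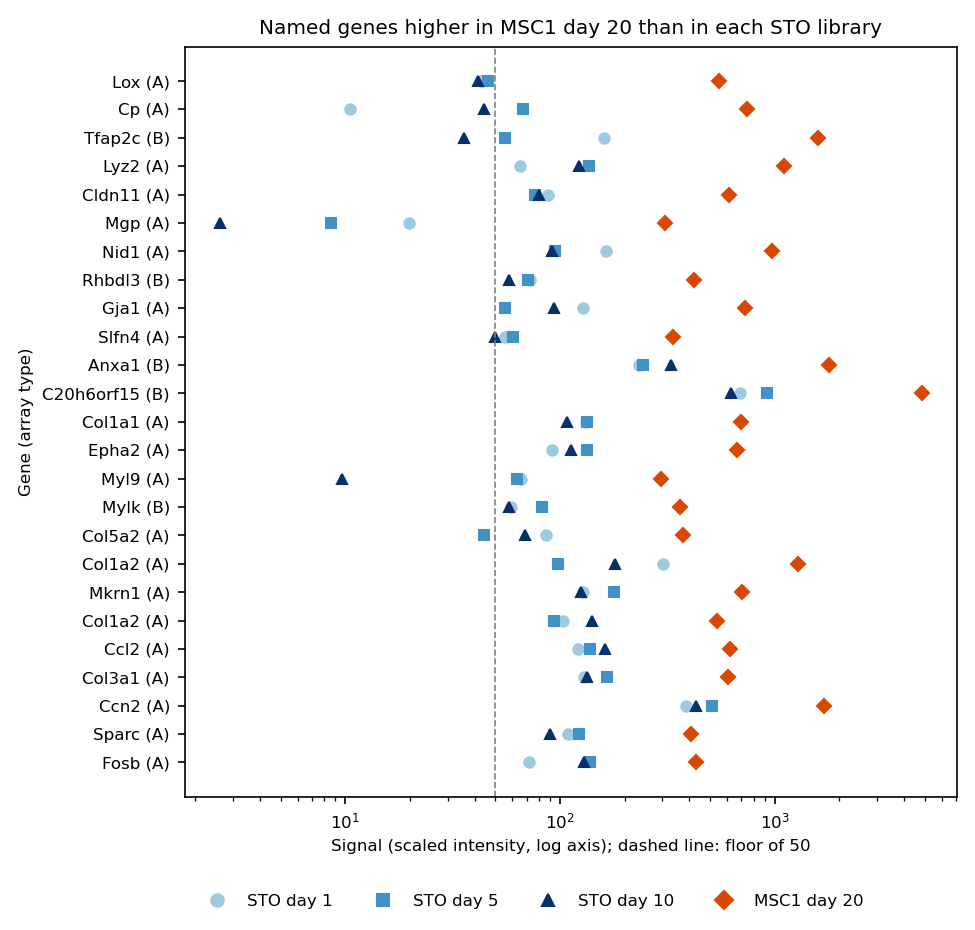
Signals of the named genes called higher in MSC1 on a log axis, with blue circles, squares and triangles for STO days 1, 5 and 10 and orange diamonds for MSC1 day 20; the dashed line is the floor of 50 and letters in brackets give the array type. Genes are ordered by the fold to the nearest STO day after the floor, from 11.1 for Lox to 3.12 for Fosb, and Col1a2 appears once for each of its 2 probe sets.

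Contractile and smooth muscle genes read above the STO days in MSC1. All 8 genes of the peritubular myoid and smooth muscle list with a signal were above the 3 STO days, with a median log2 difference of 1.09 over the 13 measured genes (0.55 with a floor of 100), and 1 of them was called by the probe set read for the gene. Myl9, a regulatory light chain of smooth muscle myosin, read 65.9, 62.8 and 9.7 on the STO days and 295 in MSC1, a 4.47-fold difference. Mylk, the kinase of that light chain, was called by its type B probe set, at 59.4, 82.4 and 57.6 against 362.5. Its type A probe set read 195, 218 and 304 against 309. Tagln, an actin-binding protein of smooth muscle, was listed at 2.9, 12.6 and 3.7 on the STO days and read 160 in MSC1. Acta2, smooth muscle actin and the usual marker of myoid cells, was under the floor in MSC1, at 11.0, and read 78.9 and 75.3 on STO days 1 and 10. The summed signal of the list was 3176 in MSC1, 1223 to 1314 on the STO days and 9964 in the tubular somatic fraction.

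Markers of Sertoli cells gave a mixed picture, which matters because the feeder line is of Sertoli origin. Cldn11, the claudin of the tight junctions between Sertoli cells, was the only gene of the Sertoli list that passed the threshold. It read 88.3, 76.5 and 80.0 on the STO days and 615.5 in MSC1, 6.97-fold above the nearest. Outside the comparison Cldn11 read 637 in laminin-binding and 156.5 in non-binding germ cells. The interstitial fraction read 1621 and the tubular somatic fraction 3390, so its signal was not confined to the tubular somatic cells. Clu, a secreted chaperone abundant in Sertoli cells, read 236, 202 and 183 on the STO days and 602 in MSC1, a 2.55-fold difference. Of 12 genes of the list with a signal, 9 were above and 2 below all 3 STO days. Wt1 read 74.8 and Inha 110 in MSC1, where the tubular somatic fraction read 1273 and 713. Sox9 was listed at 7.1 and Amh at 15.2 in MSC1, but both were under the floor in the tubular somatic fraction too, at 8.1 and 47.5. The summed signal of the list was 5200 in MSC1, 3730 to 4369 on the STO days and 22461 in the tubular somatic fraction. The arrays are designed for rat transcripts, and the part of feeder RNA in these values was not tested.

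Macrophage and leukocyte genes also had higher values in MSC1. Of its 18 genes with a signal 12 were above all 3 STO days and none was below, with a median log2 difference of 0.68 (0.23 with a floor of 100) and a summed signal of 6059 in MSC1 against 1855 to 2985. Lyz2, the lysozyme of macrophages, read 65.1, 136 and 122 on the STO days and 1103 in MSC1, an 8.11-fold difference and the largest among called genes with all 4 signals above the floor. Ccl2, a chemokine that attracts monocytes, read 121, 137.5 and 163 against 619, 3.80-fold above the nearest. Below the threshold, Cd68 read 32.1 to 61.6 on the STO days and 201 in MSC1, and Adgre1, which encodes the F4/80 antigen of mouse macrophages, read 13.9 to 68.7 against 212. Csf1r, the receptor that macrophages need for survival, read 97.6 in MSC1 and lay within the STO range. The steroidogenic gene Star read 62.5, 45.9 and 97.5 against 114. The Leydig and steroidogenic list that holds it had 2 of 4 genes with a signal above all 3 STO days and 2 below. Its summed signal was 2107 in MSC1 against 2692 to 3669. The endothelial list had 4 of 7 genes above and 1 below. The part of such cells in the higher calls was not tested.

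The remaining named genes on the higher side belonged to no matrix or muscle list. Tfap2c, the transcription factor AP-2 gamma, which mouse primordial germ cells need, read 160, 55.2 and 35.9 on the STO days and 1584 in MSC1. This was 9.92-fold above the nearest day, while both somatic fractions were under the floor at 7.9 and 12.9 and the laminin-binding cells were at 30.7. C20h6orf15 read 692, 917 and 627 on the STO days and 4850 in MSC1, 5.29-fold higher, with 153 and 191 in the somatic fractions. Cp, the copper-carrying ferroxidase ceruloplasmin, read 10.5, 67.5 and 44.3 against 743, an 11.0-fold difference, and 1524 in the interstitial fraction. Its other probe sets disagreed, at 54.2 and 68.7 in MSC1, 1.08-fold and 1.27-fold above the nearest day after the floor. In the interstitial fraction they read 1151 and 1703. Gja1, the gap junction protein connexin 43, read 128, 55.2 and 94.1 against 728, and both somatic fractions read higher still at 2528 and 3001. Epha2, a receptor of ephrin ligands, read 91.8, 134 and 112.5 against 669. Rhbdl3, of the rhomboid protease family, was 5.84-fold higher, Slfn4 of the schlafen family 5.56-fold and the ubiquitin ligase gene Mkrn1 3.95-fold. Fosb, an immediate early transcription factor, was 3.12-fold higher at 71.7, 138 and 129 against 430.

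Annexin gene Anxa1 was split by its probe sets. The type B probe set read 233, 244 and 329 on the STO days and 1798 in MSC1, 5.46-fold higher, and the type A probe set read 259.8, 104 and 227 against 136, within the STO range. Such checks were possible for 14 of the 40 genes called higher, which had 25 other probe sets with a signal of at least 100. Dimmer ones, such as those of Cp, were not counted. Of these 25, MSC1 was above all 3 STO days in 15, below in 2 and within in the rest, beside 32.6% above and 28.3% below over all genes with a signal. Ssh1, a cofilin phosphatase named here after its values were seen, read 1420, 943 and 223 on the STO days and 4350 in MSC1, and its other probe set lay 1.65-fold above the nearest day.

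On the lower side the named probe sets included some of genes that regulate splicing, replication and chromatin. How common such genes are among all genes on the arrays was not counted. Pnn, a splicing-associated protein of nuclear speckles, read 965, 920 and 643 on the STO days and 126.5 in MSC1, 5.08-fold lower. Topbp1, which activates the checkpoint kinase ATR at replication forks, read 1520.3, 2631 and 1409 against 316.5, 4.45-fold lower. Rif1, a regulator of replication timing and of DNA break repair, read 585, 513 and 585 against 114. Chd4, the remodelling ATPase of the NuRD complex, read 618, 475 and 416 against 99.1. Tbl1x, a subunit of the NCoR corepressor complex, read 315, 526 and 337 against 69.9.

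Genes of RNA handling and translation were among the lower calls too. Wdr33, a subunit of the polyadenylation machinery, read 353, 408 and 324 on the STO days and 30.5 in MSC1, at least 6.47-fold lower. Eif3c, a subunit of translation initiation factor eIF3, read 461, 468 and 574 against 102, 4.53-fold lower. Alkbh1, a dioxygenase that acts on nucleic acids, was at least 5.40-fold lower and Fnip2, a partner of folliculin, at least 9.10-fold, both under the floor in MSC1. Tab3, an adaptor of the kinase TAK1, was 4.70-fold lower, Ralgdsl1 4.66-fold, Hps6 of lysosome-related organelles 4.58-fold, Ccdc71 4.20-fold and the unconventional myosin gene Myo10 4.05-fold.

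Other probe sets of the genes called lower often did not follow the call. Of the 24 genes called lower, 16 had another probe set with a signal of at least 100, 25 in all. MSC1 was below all 3 STO days in 6 of these 25, above in 9 and within in 10. Over all genes with a signal 28.3% were below and 32.6% above, so these counts are near the shares of any gene. For Topbp1 the other probe set was also below all 3 days, by 1.48-fold. For Tbl1x both other probe sets were above all 3 days, by 1.34-fold and 1.71-fold, and the type A probe set of Chd4 was above by 1.99-fold. The brightest other probe sets of Rif1, Wdr33 and Alkbh1 lay within the STO range, and that of Pnn was 1.02-fold above all 3 days. A lower call for these genes is therefore a statement on the probe set and not on the gene.

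**Figure D2:**
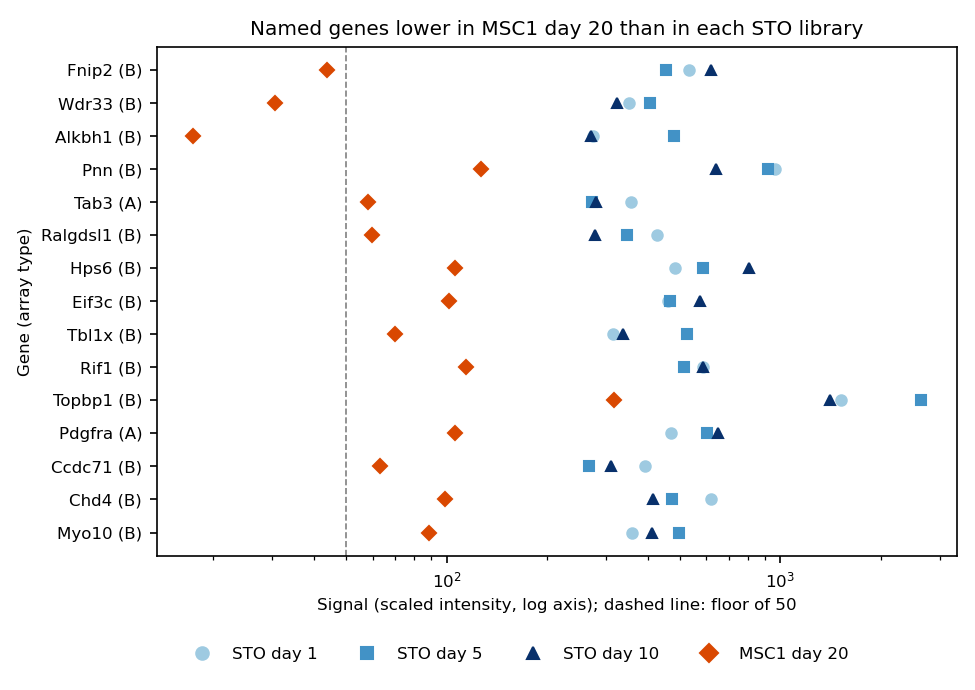
Signals of the named genes called lower in MSC1 on a log axis, with blue circles, squares and triangles for STO days 1, 5 and 10 and orange diamonds for MSC1 day 20; the dashed line is the floor of 50. The fold to the nearest STO day runs from at least 9.10 for Fnip2 to 4.05 for Myo10, and 13 of the 15 genes were read on array type B.

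Where the called probe sets stood in the libraries outside the comparison was counted separately. Of the 66 probe sets called higher, 25 (37.9%) were at least 3-fold brighter in interstitial than in laminin-binding cells and 23 (34.8%) in tubular somatic than in laminin-binding cells. Over all probe sets these shares were 6.84% and 5.25%. The 25 and 23 are 1.18% and 1.41% of the probe sets that pass those comparisons. The reverse, brighter in laminin-binding cells, held for 6 and 3 of the 66. Of the 41 called lower, 18 (43.9%) were brighter in laminin-binding than in interstitial cells and 10 (24.4%) than in tubular somatic cells, with 5.77% and 4.79% over all probe sets. These are 1.01% and 0.672% of the probe sets that pass. A call asks for a signal of at least 250, which favours probe sets that can be bright, and these shares were not tested.

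Genes of undifferentiated spermatogonia were nearer in MSC1 to STO day 1 than to STO day 10. Their median log2 difference was 0.10 against day 1, 0.32 against day 5 and 0.93 against day 10, over 17 measured genes. Of 14 with a signal, 8, 8 and 11 were brighter in MSC1 than on days 1, 5 and 10, and none was called. Over all 9741 genes with a signal, 5174, 4903 and 5057 were brighter, so the counts for days 1 and 5 are near those of all genes. Ret, the signalling receptor for GDNF, read 1729.5, 768 and 317.5 on the STO days and 1145 in MSC1, between days 1 and 5. Gfra1, the GDNF-binding subunit of that receptor, read 328, 300.0 and 149 against 376. Nanos3, an RNA-binding protein of early germ cells, read 326, 142 and 27.2 against 349.9, above all 3 days and 1.07-fold above day 1. Snap91, an adaptor of clathrin coats, read 492, 166 and 105 against 341. On STO day 20 these genes read 48.6 for Ret, 58.6 for Gfra1, 21.6 for Nanos3 and 25.8 for Snap91.

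Targets of GDNF signalling known from rodent spermatogonia read above every STO day in part of the cases. Etv5 read 322.5, 382 and 255 on the STO days and 707 in MSC1, 1.85-fold above the nearest. Bcl6b, a transcriptional repressor, read 670.1, 788 and 368 against 1274. The related ETS factor gene Etv4 read 2716, 2598 and 2124 against 4582. Egr4 followed the other pattern, at 822, 722 and 322 against 690.4. Among the 15 GDNF and FGF signalling genes with a signal, 7 (46.7%) were above and 1 was below all 3 STO days. Over all genes with a signal 32.6% were above and 28.3% below. The median log2 difference of the list was 0.36 (0.19 without STO day 10). It was 0.08 against day 1, where 8 of the 15 genes were brighter in MSC1, and 0.35 and 0.53 against days 5 and 10. Dusp6, a phosphatase that limits ERK, lay within the STO range at 300.1, 237 and 110 against 254.5.

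Not all spermatogonial genes read this way. Sox3, a transcription factor gene, read 257, 249 and 144 on the STO days and 144 in MSC1, level with day 10. Lin28a, which blocks processing of let-7 precursors, read 166, 296.5 and 321 against 120.4, below all 3 days. Epcam, an adhesion protein of undifferentiated cells, read 768, 704 and 771 against 636. Dnmt3a, the de novo DNA methyltransferase, read 2263, 1405 and 1147 against 537, 2.13-fold below the nearest day, while the maintenance enzyme gene Dnmt1 read 410.3, 569 and 453 against 872.5. Kit, the receptor of differentiating spermatogonia, was at or under 50.2 in all 4 libraries and read 31.6 in MSC1.

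General germ cell genes showed no shift, with a median log2 difference of -0.06 over 8 genes, 2 above and 3 below all 3 STO days. Their summed signal was 31622 in MSC1 and 30213 to 35072 on the STO days, beside 925 in the interstitial fraction. Tex15, a germ cell gene needed for meiotic recombination in mice, read 13775, 17497 and 12646 on the STO days and 14006 in MSC1. Meiotic prophase genes were above all 3 days for 5 of 7 and below for none, with a median log2 difference of 0.40 and no call. Sycp3 of the synaptonemal complex read 722, 609 and 548 against 926, and Stag3 of meiotic cohesin read 945, 910.0 and 708 against 1477. Spo11, which makes the breaks of meiotic recombination, read 101.5, 179 and 62.0 against 116, and 2381 on STO day 20. Ldhc, the lactate dehydrogenase of later spermatocytes, was under the floor in MSC1 at 11.4.

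**Figure D3:**
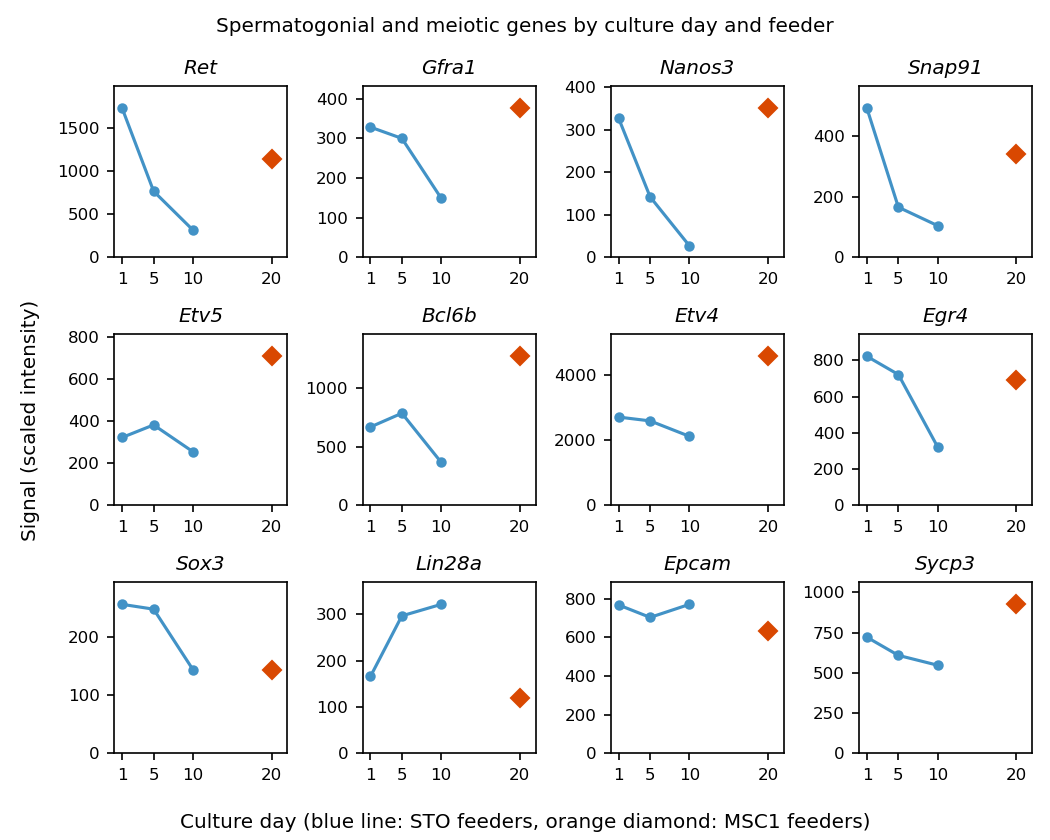
Signals of 12 spermatogonial and meiotic genes, chosen for display after their values were seen, by culture day, with a blue line for the STO libraries of days 1, 5 and 10 and an orange diamond for MSC1 day 20. Ret, Snap91 and Egr4 in MSC1 lie between the STO values of days 1 and 10, Etv5, Bcl6b and Etv4 lie above all 3, and Lin28a and Epcam lie below all 3.

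Metabolic genes divided by pathway. In the cholesterol synthesis and uptake list 11 of 17 genes with a signal were below all 3 STO days and 1 was above, with a median log2 difference of -0.52, and none was called. Stard4, a cytosolic sterol carrier, read 1189.6, 843 and 929.9 on the STO days and 370.1 in MSC1, 2.28-fold below the nearest. Sqle, the squalene epoxidase, read 249, 148 and 344.5 against 48.1, 2.96-fold after the floor. Cyp51, the lanosterol demethylase, read 366.5, 409 and 576 against 181, and Insig1, the sterol-regulated anchor of SCAP, read 795, 857 and 1179 against 438. The single gene above was Mvk, mevalonate kinase, at 115, 123 and 115 against 175.

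Glycolysis and hypoxia genes went the other way, with 14 of 22 above all 3 STO days, 3 below and a median log2 difference of 0.55, again with no call. Ldha, lactate dehydrogenase A, read 471, 197 and 225 on the STO days and 720.4 in MSC1. Eno1, enolase, read 612, 347 and 371 against 996, and the glucose transporter gene Slc2a3 read 276.5, 160.5 and 125 against 466. The 3 genes below were Pgam1 of glycolysis, Bnip3, a mitophagy receptor, and Egln3, an oxygen sensor. Bnip3 read 631.5, 529 and 979 against 376.5. Oxidative phosphorylation genes were below all 3 days for 15 of 32 and above for 7, with a median of -0.17 (-0.07 without STO day 10). Against day 1 there was no shift, with a median of -0.0006 and 16 of the 32 genes brighter in MSC1. The medians against days 5 and 10 were -0.23 and -0.24.

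Immediate early genes were above all 3 STO days for 10 of 14 and below for 2, with a median log2 difference of 0.51 (0.26 with a floor of 100). Fos read 219, 129 and 403 on the STO days and 629 in MSC1, and Egr1 read 1378, 1069.7 and 1131.5 against 1533. Jun and Klf4 were below all 3 days. Interferon response and antigen presentation genes were above for 13 of 26 and below for 2, with a median of 0.55 (0.35 without STO day 10). The gap was widest against day 10, at 0.95, and 0.48 and 0.25 against days 1 and 5. Irf7, a transcription factor of that response, read 93.3, 102 and 94.7 against 269, and the immunoproteasome gene Psmb9 read 237, 278.5 and 96.0 against 439. Cell cycle genes were below all 3 days for 16 of 36 and above for 9, with a median of -0.15, while the proliferation marker Mki67 read 1320.5, 1348.5 and 1441 against 1892.5.

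**Figure D4:**
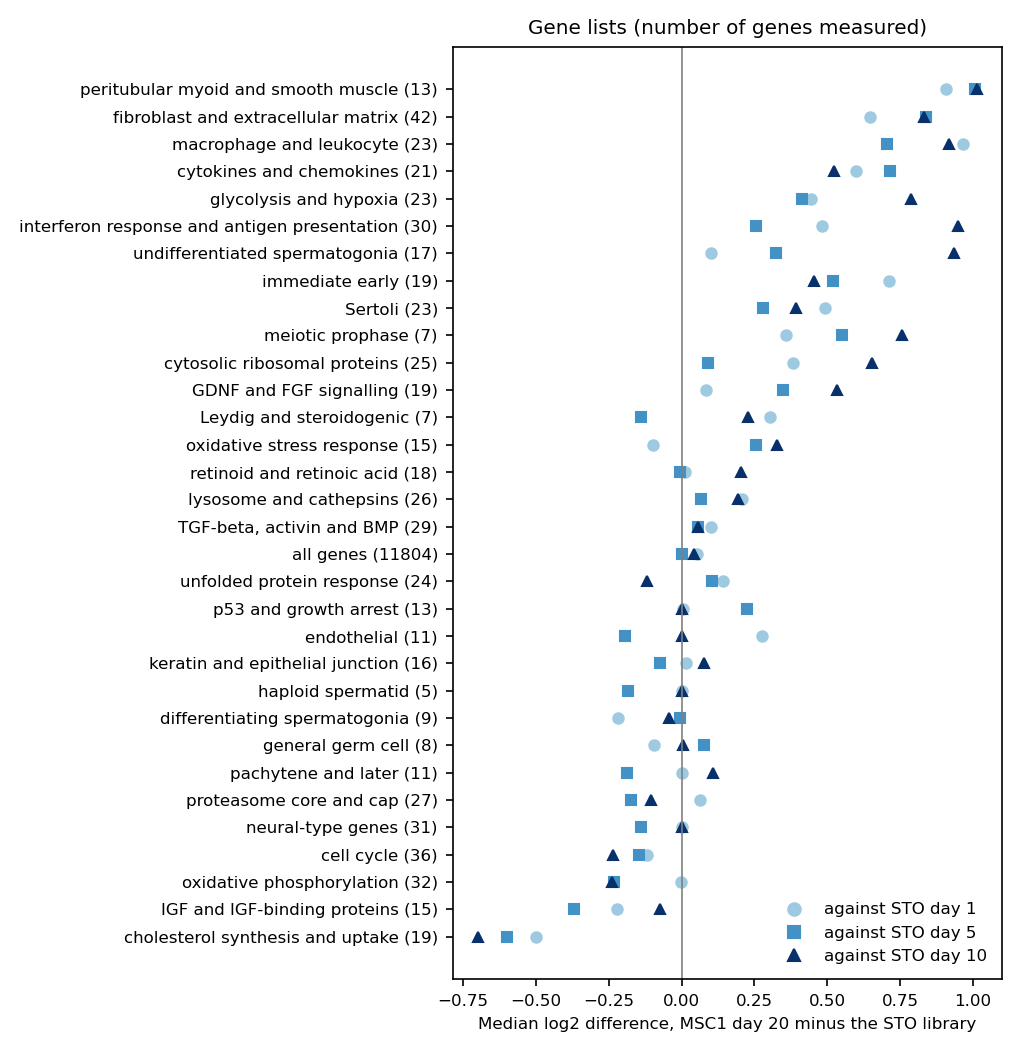
Median log2 difference of MSC1 day 20 from STO day 1 (circles), day 5 (squares) and day 10 (triangles) for each gene list, with the number of measured genes in brackets and a line at 0. The peritubular myoid list lies at 0.91 to 1.01, above the other lists except that the macrophage and leukocyte list is at 0.965 against day 1, the cholesterol list is lowest at -0.50 to -0.70, and the undifferentiated spermatogonia list spreads from 0.10 against day 1 to 0.93 against day 10.

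**Figure D5:**
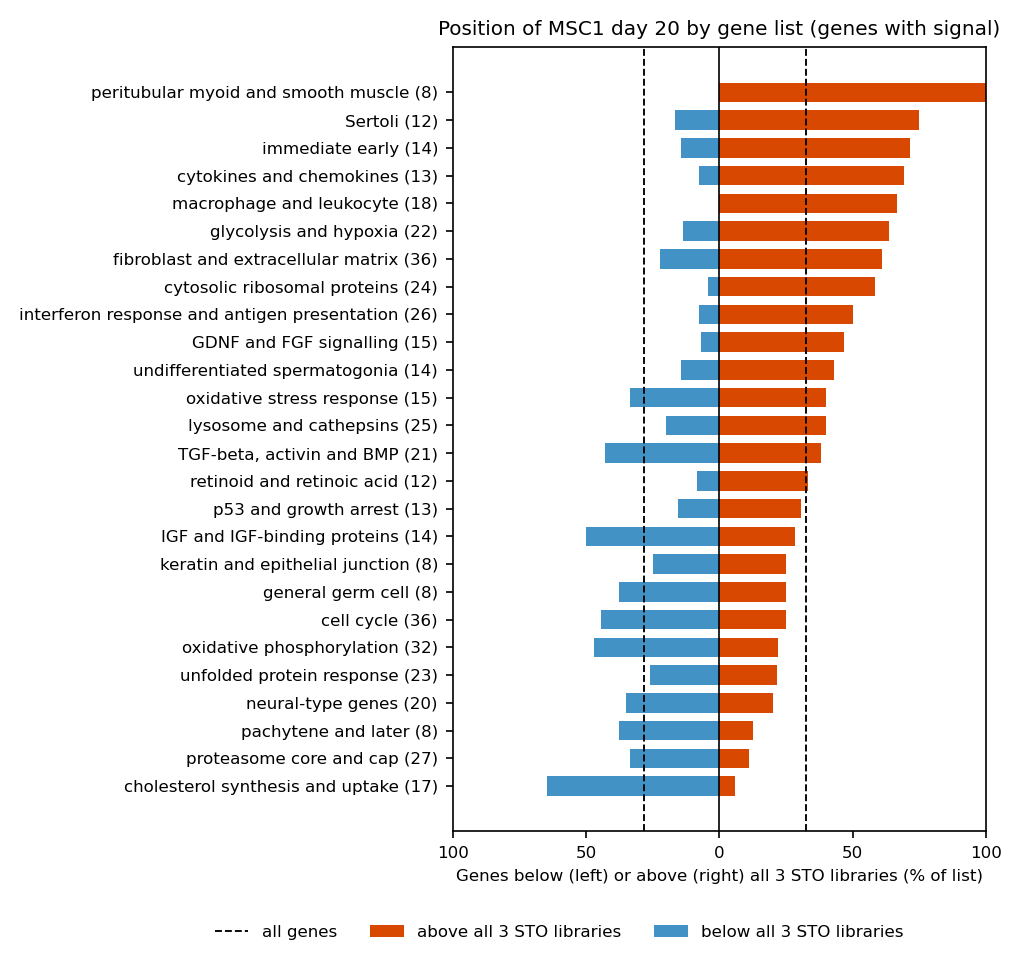
Share of genes of each list with MSC1 day 20 above (orange, right) or below (blue, left) all 3 STO days, for lists with at least 8 genes with a signal of 100 or more (number in brackets). Dashed lines give the shares over all genes, 32.6% above and 28.3% below, and the lists range from 8 of 8 above for peritubular myoid genes to 1 of 17 above for cholesterol genes.

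The order of the STO days at the called probe sets was also counted. Of the 66 higher calls, the STO signals went up from day 1 through day 5 to day 10 in 4 (6.06%) and down in 14 (21.2%), where 14.6% and 15.1% of all probe sets with a signal of at least 100 had those orders. Of the 41 lower calls, 6 (14.6%) had STO signals that went down from day to day and 6 (14.6%) had signals that went up, close to the same shares of all probe sets. No test was run on these counts. STO day 20, left out of the choice of genes, read 729 for Lox, 539.9 for Col1a1 and 438 for Lyz2 but 55.6 for Cldn11, 5.4 for Tfap2c, 3.8 for Mylk on type B and 135.5 for C20h6orf15.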

How the data were processed

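Each of 9 cell populations was put on 2 types of 1-colour oligonucleotide array, 18 arrays in all, of which 8 enter the comparison. The labels state an input of 50 ng total RNA, amplified in 2 rounds. The authors deposited 1 linear intensity per probe set and array, scaled to an average of 250 with factors between 0.510 and 1.512 for type A and between 1.464 and 3.834 for type B on these arrays, per the labels. The software and its background treatment were not given in the sources used here, and the number of arrays limits the precision. Control probe sets were left out, and 100 held by both types were counted on type A. Probe sets with 1 gene in the platform annotation were named (12789 on type A, 7570 on type B). Lists take the probe set with the highest mean log2 signal over all arrays for each gene, on type A where present.

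The named genes are, per direction, the 12 calls with the largest fold and all 4 signals above the floor, the 6 with the largest fold where a signal was at or under it, called members of the gene lists and a fixed panel of markers. Members and the 32 lists were chosen with earlier results of these data known. The call rule was tested on simulated signals with known folds. Alternatives changed the fold, the floor, the minimum signal, the scaling and the STO days used. Python 3.11.15, numpy 2.4.6, pandas 2.3.3 and matplotlib 3.10.9 were used.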

Additional observations from a re-analysis of the deposited data

How the results depend on the processing

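With a fold of at least 2 the counts of probe sets higher and lower than each STO day were 260 and 176, and with at least 5 they were 23 and 6, in place of 66 and 41. With the brighter side at least 100 they were 104 and 81, and with at least 500 they were 36 and 17. Leaving out STO day 1 gave 100 and 66, and leaving out STO day 5 gave 120 and 81. Type A alone gave 32 and 4, and type B alone 34 and 37. Leaving out STO day 10 (81 and 55), floors of 25 (66 and 41) and 100 (60 and 36), scaling to the 75th percentile (58 and 45) and quantile normalization (68 and 51) kept both counts within 1.5 times the main ones. A looser rule or fewer arrays change the counts by construction, and no other cause was tested. Over 7 settings each, 48 of 280 values of the 40 named probe sets that were called moved by more than 0.198. That is the array error against the mean of the 3 STO days. These values are differences to the nearest STO day, and the errors of 0.22 to 0.25 against single days were not used here. By the same measure, 36 of 154 values of the 22 panel genes that were not called moved. For these 22, Ret went from above the mean of the STO days to -0.01 without STO day 10. Of the list medians 26 of 248 moved. Besides those given with the results, the peritubular median was 0.62 when all probe sets of a gene were averaged, the cell cycle median -0.05 with quantile normalization and the meiotic median 0.26 with a floor of 100. The median of the Sertoli list and that of the cytokine list were 0.0 with a floor of 100, and the IGF median of -0.23 became 0.07 without STO day 5. No paired analysis was possible because each population has 1 library per array type and the labels give no replicate numbers.

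There is 1 library per population, so no difference has an error from repeated cultures. Feeder line and culture day differ together. Signals near the floor are not well measured, and 37 of the 41 lower calls are on array type B.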

Other observations

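Cytosolic ribosomal protein genes were above all 3 STO days in MSC1 for 14 of 24 and below for 1, with a median log2 difference of 0.38, though it was 0.09 against STO day 5. Proteasome genes were below all 3 for 9 of 27 (33.3%), near the 28.3% over all genes. They were above for 3 (11.1%), beside 32.6% over all genes. Genes of IGF and its binding proteins were below for 7 of 14 and above for 4. Of 13 cytokine and chemokine genes with a signal, 9 were above and 1 below. The one below was Csf1, the growth factor of macrophages, at 917.5, 725 and 1224.5 on the STO days and 402.5 in MSC1. Cxcl12, a chemokine of stromal cells, read 53.2, 48.9 and 57.4 on the STO days and 129.7 in MSC1.

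Several of the larger differences have no single gene in the annotation used. One probe set of type A read 187, 126.0 and 259.8 on the STO days and 2830.3 in MSC1, a 10.9-fold difference, with 4035 in the tubular somatic fraction. One of type B read 490.5, 388.5 and 514.5 against 32.3, at least 7.77-fold lower. Apoe, the apolipoprotein that macrophages secrete, read 229, 71.7 and 84.9 on the STO days and 592 in MSC1, and 51.1 on STO day 20.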
